A study of Homo sapiens with 2 samples.

Results

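The 6 GATA genes of the human genome were examined for GATA2 binding in LNCaP, an established androgen-responsive prostate cancer cell line. Chromatin immunoprecipitation with an antibody against GATA2 was followed by sequencing (ChIP-seq) in 2 replicate samples of the same treatment, passage range and antibody lot. The cells had spent their last 3 days in medium with 5% charcoal-stripped serum, which holds little steroid hormone. There was 1 group, with no untreated, input or other control among the samples used here. For the whole series 1 list of 36797 peaks on hg19 was deposited. How the 2 replicates entered that list is not given in the sources used here. A peak belonged to a GATA gene where its midpoint lay in a window made of the gene and about 0.1 Mb on each side, and 21 peaks (0.0571% of the list) did so. The GATA2 window held 5 of them, the GATA3 window 8, the GATA4 window 4, the GATA6 window 2, and the GATA1 and GATA5 windows 1 each.

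GATA factors are zinc-finger proteins that bind DNA sequences built around the letters GATA. GATA1, GATA2 and GATA3 are best known from blood cells, where GATA2 serves stem and progenitor cells, GATA1 red cells and platelets, and GATA3 T lymphocytes, and GATA3 also acts in breast and other epithelia. GATA4, GATA5 and GATA6 are best known from heart, gut and other organs derived from endoderm and mesoderm. In blood, GATA2 protein is known to bind regulatory elements of its own gene, upstream of it and in an intron, and GATA1 takes over some of those elements as red cells mature. In prostate cancer cells GATA2 is known as a factor that works beside the androgen receptor. Expression was not measured in these samples, so whether GATA2 regulates itself or its relatives in LNCaP cannot be read from the list, which shows only where peaks were called. Whether the antibody also recognises other GATA proteins was not tested.

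The list has no column for a single replicate, so no value below carries a replicate error and no test between conditions was possible. Each peak has a score, the authors' value from the peak caller, which runs from 80.01 to 3100 with a median of 212.2 over the list. The sources used here do not state its scale, and it served only to rank and describe peaks. Read depth behind the peaks is unknown, so a gene without a peak cannot be called unbound. The gene interval of GATA2 (chromosome 3, 128.198 to 128.212 Mb, minus strand) was given to 1 kb. Those of the other genes were recovered from their windows, which are given only to about 10 kb. Distances from them can be off by that much, and by more where the interval and the gene differ in length.

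GATA2 peaks lay around the GATA2 gene and none lay in it or over its start. No peak centre fell in the 14 kb gene interval, which was also true of 85.3% of all consecutive 14 kb windows of the genome, so the empty gene is the usual case for its length. The promoter sequences are shown for reference, and whether they relate to the absence of a peak was not tested. RefSeq (GRCh38.p14) lists 2 starts for GATA2, 4671 bp apart. The 300 bases around each, 250 before the start and 50 after it, hold no GATA letters on either strand. Positions of the sequences are on that build, so they cannot be set beside the hg19 positions of the peaks. In the sequences below, capitals mark GATA or its reverse complement TATC, and both GATA2 sequences have none.

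GATA2 upstream start, chr3:128493152-128493451, minus strand: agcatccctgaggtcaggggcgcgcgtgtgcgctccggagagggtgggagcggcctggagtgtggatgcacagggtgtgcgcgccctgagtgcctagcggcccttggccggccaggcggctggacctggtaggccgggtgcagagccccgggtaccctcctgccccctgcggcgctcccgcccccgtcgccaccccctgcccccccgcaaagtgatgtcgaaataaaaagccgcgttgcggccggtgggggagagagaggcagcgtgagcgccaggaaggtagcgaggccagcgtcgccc
GATA2 downstream start, chr3:128488481-128488780, minus strand: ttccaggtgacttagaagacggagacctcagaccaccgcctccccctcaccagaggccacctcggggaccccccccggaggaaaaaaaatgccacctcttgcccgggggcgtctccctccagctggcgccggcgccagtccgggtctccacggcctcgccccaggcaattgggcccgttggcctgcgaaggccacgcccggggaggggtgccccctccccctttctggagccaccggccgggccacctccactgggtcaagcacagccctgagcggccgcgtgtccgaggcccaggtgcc
GATA6 start, chr18:22169339-22169638, plus strand: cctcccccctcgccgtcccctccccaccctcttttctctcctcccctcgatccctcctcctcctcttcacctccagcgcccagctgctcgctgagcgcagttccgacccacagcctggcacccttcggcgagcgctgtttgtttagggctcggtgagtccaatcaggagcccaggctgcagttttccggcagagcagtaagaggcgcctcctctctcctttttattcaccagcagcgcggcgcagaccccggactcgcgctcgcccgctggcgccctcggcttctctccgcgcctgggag
GATA3 start with GATA read forward, chr10:8054438-8054737, plus strand: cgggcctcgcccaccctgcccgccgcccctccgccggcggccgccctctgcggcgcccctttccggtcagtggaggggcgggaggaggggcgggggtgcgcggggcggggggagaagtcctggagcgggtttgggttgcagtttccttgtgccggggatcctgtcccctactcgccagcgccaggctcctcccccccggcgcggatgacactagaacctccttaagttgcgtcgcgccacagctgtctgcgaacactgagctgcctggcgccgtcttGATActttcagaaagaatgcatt
GATA3 start with GATAA on the opposite strand, chr10:8060207-8060506, plus strand: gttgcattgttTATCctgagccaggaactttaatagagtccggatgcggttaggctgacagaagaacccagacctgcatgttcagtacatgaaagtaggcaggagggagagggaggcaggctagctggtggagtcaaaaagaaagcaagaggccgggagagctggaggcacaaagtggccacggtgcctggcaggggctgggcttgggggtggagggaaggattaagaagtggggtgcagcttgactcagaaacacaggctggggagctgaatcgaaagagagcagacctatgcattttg

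The GATA6 sequence is shown because the peaks of that window lay near the 5′ edge of its gene interval, and the 2 GATA3 sequences because they are 2 of the 3 in the family with a match. Of the 6 genes, 4 had promoter sequences in the table (GATA1, GATA2, GATA3 and GATA6), with 10 starts in all, 6 of them for GATA3. The hexamers AGATAA or AGATAG or TGATAA or TGATAG, searched on both strands, occurred in 0 of the 10, against 25.0% of the 35116 promoters of the table. The 10 sequences held 54.3% to 74.7% G and C, against a median of 58.7% for all promoters. The lowest was the GATA3 start with GATAA, and all others held 60.7% or more. Of the 17859 promoters from 54.3% to 74.7%, 13.0% held a hexamer, and that 1 start set the lower end of the range. The shorter string GATAA, which overlaps the hexamers that end in GATAA, occurred in 1 of the 10 against 22.7% of all, and the bare core GATA in 3 of the 10, all GATA3 starts, against 49.7% of all. These counts describe letters in 300 bases and say nothing about binding elsewhere. The peaks themselves could not be searched, since no hg19 sequence was used here.

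The highest-scoring peak of the GATA2 window was also the one closest to the gene. It spanned 128216432 to 128216788 (357 bp) with a score of 696.08, a value reached by 9.73% of all peaks, and its centre lay 4.61 kb upstream of the 5′ end of the gene interval. Of positions spaced every 1 kb along the genome, 10.2% lay as close to a peak centre. The score was high for the width of the peak: among the 2205 peaks within 10 bp of it in width, the median score was 367.2 and 5.99% scored at least as high. The next peak upstream, at 128244243 to 128244456 (214 bp), lay 32.35 kb from the 5′ end and scored 149.84, below the median of the list. In RefSeq the antisense gene GATA2-AS1 neighbours GATA2, and the next protein-coding gene on this side is RPN1. Which of these transcripts the 2 upstream peaks overlap was not analysed, since that table is on another build.

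Beyond the 3′ end of GATA2 the window held 3 peaks. DNAJB8, a gene for a heat-shock protein cofactor, is the next protein-coding gene on this side. Whether the peaks lie before, in or beyond DNAJB8 was not analysed. The peak nearest to GATA2, at 128154084 to 128154397 (314 bp), had a score of 262.18 and lay 43.76 kb beyond the gene interval. The peak at 128101241 to 128101547 (307 bp) had a score of 115.74, which 95.8% of peaks of similar width reached or passed. Its neighbour at 128098075 to 128098453 (379 bp), 3130 bp away between centres, scored 459.6, close to the 432.1 that was the median for its width. The stretch without peaks that contains the gene ran for 62.0 kb, from 128154398 to 128216431. Of all gaps between neighbouring peaks in the list 38.2% were at least that long, and such gaps made up 82.4% of the length spanned by peaks, so a gap of this size is common.

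The GATA2 window as a whole had more peaks than the typical window, by a modest margin. Its 5 peaks in 230 kb gave 21.7 per Mb, against 13.8 per Mb over chromosome 3 and 12.2 per Mb over the whole list, and the exact Poisson 95% interval of the count, 1.62 to 11.7, covers counting error only. Of all windows of 230 kb, 21.2% held at least 5 peaks, and 22.3% had a highest score of at least 696.08. Just outside the window lay a higher-scoring peak, at 128081076 to 128081471 with a score of 952.57, 8.7 kb past the edge on the 3′ side, and a peak of score 212.59 at 128336570 to 128336861, 16.7 kb past the edge on the 5′ side. With a flank of 0.2 Mb the count was 11, with 7 peaks on the 3′ side and 4 on the 5′ side of the gene. Of all 414 kb windows, 7.56% held at least 11. That share was computed after the counts had been seen, and only for GATA2 and GATA3.

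**Figure D1:**
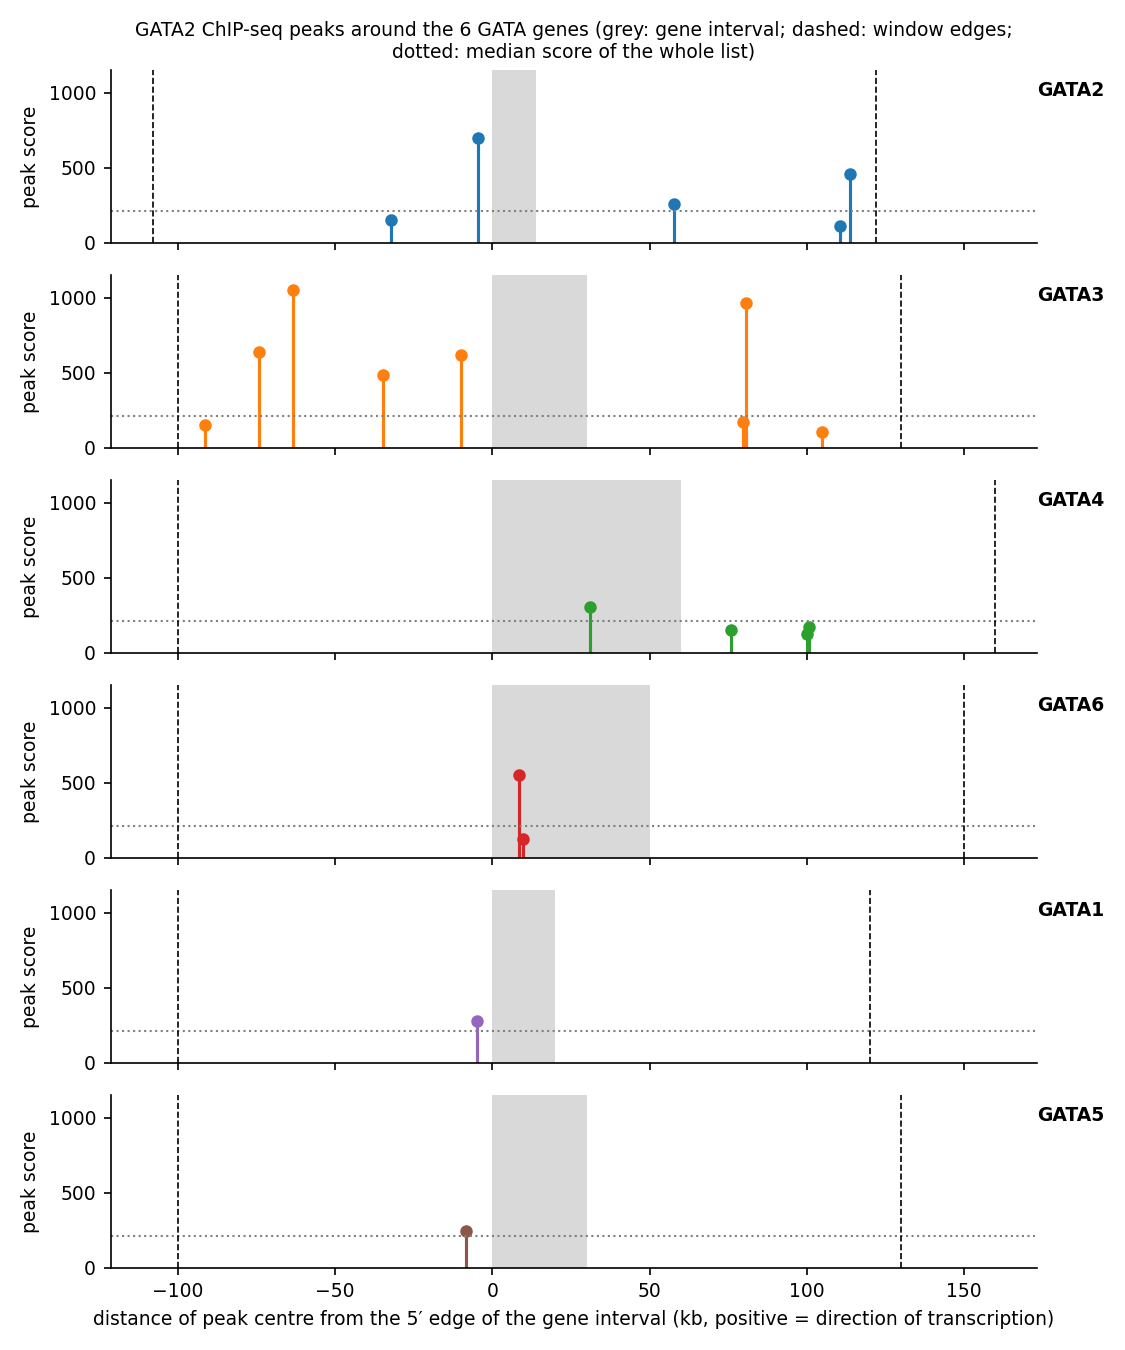
Score of each of the 21 peaks (vertical axis, authors' score) against the distance of its centre from the 5′ edge of the gene interval (horizontal axis, kb, positive in the direction of transcription), 1 panel per GATA gene. Of the 6 genes, GATA4 and GATA6 alone have peaks in the grey gene interval, and the tallest GATA2 peak, at 696.08, stands 4.61 kb upstream of it.

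With the flank of 0.1 Mb, GATA3 had the densest window of the family, and its highest-scoring peaks. The 8 peaks on chromosome 10 (7.99 to 8.22 Mb) amounted to 34.8 per Mb, against 13.0 per Mb over that chromosome, with a Poisson 95% interval of 3.45 to 15.8 for the count. Of all 230 kb windows, 4.32% held at least 8 peaks. The highest score, 1048.44, was matched or passed by the highest score of 8.16% of windows. All 8 peaks lay outside the 30.0 kb gene interval (8.09 to 8.12 Mb), and 72.2% of windows of that length held no peak.

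On the 5′ side of GATA3 there were 5 peaks, and 4 of them scored well above the median of the list. The peak at 8026141 to 8026900 was the widest of the 21, at 760 bp, a width that 0.891% of all peaks reach, and its score of 1048.44 ranked 1140 in the list. It lay 63.48 kb from the gene interval. The peak at 8015474 to 8015889, 10839 bp farther out, scored 639.3, and the peak at 8054956 to 8055376, 34.83 kb from the interval, scored 482.87. The nearest to the gene, at 8079819 to 8080133, scored 617.26 at 10.02 kb from the interval. That score was unusual for a peak of only 315 bp, since the median for peaks of similar width was 257.3 and 1.69% of them scored as high. The farthest, at 7998425 to 7998689, scored 152.06. TAF3, which encodes a subunit of the general transcription factor TFIID, is the protein-coding neighbour on this side. Which of the 5 peaks lie within TAF3 was not analysed, since RefSeq was used on another build.

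On the 3′ side of GATA3, toward CELF2, 3 peaks differed widely in score. The peak at 8170517 to 8170934 (418 bp) scored 967.78, a value reached by 4.12% of the list, and lay 50.72 kb beyond the gene interval. A companion at 8169393 to 8169801, with its centre only 1128.5 bp away, was nearly as wide at 409 bp but scored 174.77. The last, at 8194783 to 8194919, was the narrowest of the 21 at 137 bp and had the lowest score, 105.38. Between the 2 sides, 89.3 kb from 8080134 to 8169392 held the gene and no peak, a length reached by 27.6% of gaps, which made up 72.7% of the length spanned by peaks. Just past the window edges, the next peaks scored 874.93 on the 3′ side, at 8238514 to 8238892, and 166.78 on the 5′ side, 72.1 kb past the edge. With a flank of 0.2 Mb the count was 12, reached by 6.26% of windows of 430 kb, a share also computed after the counts had been seen.

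**Figure D2:**
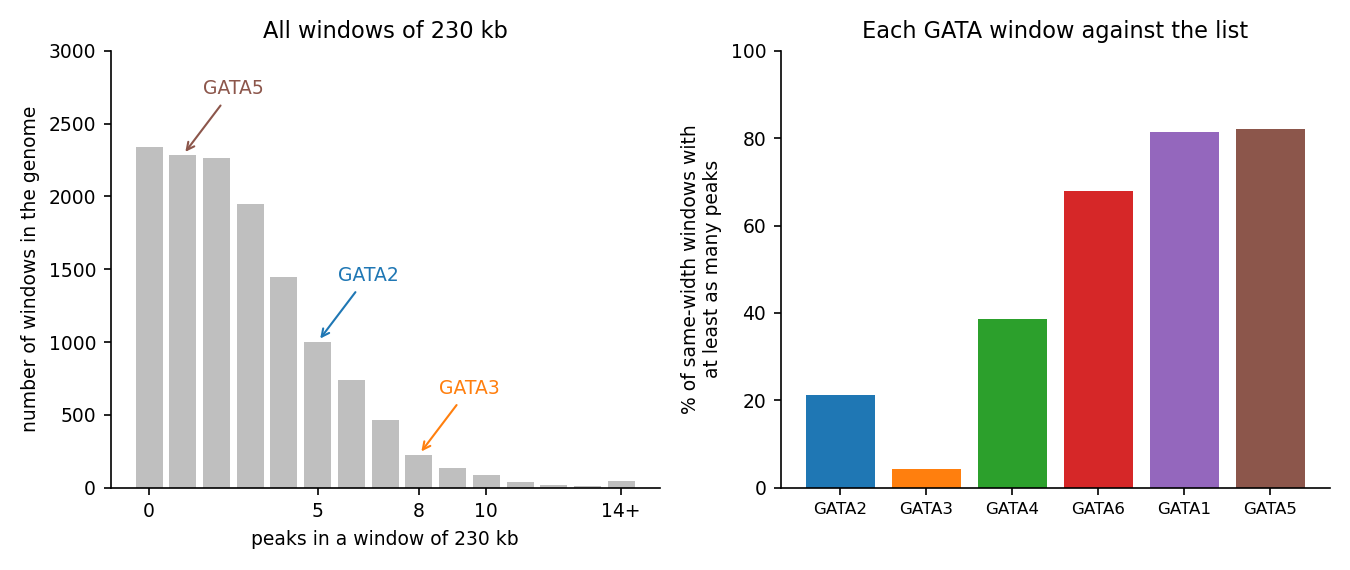
Left, the number of consecutive 230 kb windows of the genome (vertical axis) by the peaks they hold (horizontal axis), with the counts of the 3 GATA windows of that width marked. Right, the percentage of same-width windows with at least as many peaks as each GATA window, which is 4.32% for GATA3, 21.2% for GATA2 and 82.1% for GATA5.

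Among the heart and gut members, GATA4 (chromosome 8, 11.46 to 11.72 Mb) had 4 peaks of low to middling score. The highest, at 11590785 to 11591231 (447 bp), scored 303.2 and lay inside the gene interval of 60.0 kb, 31.01 kb from its 5′ edge. Of windows of that length 45.4% held a peak. For its width the score was low, since 85.6% of peaks of similar width scored at least as high. The other 3 lay beyond the 3′ edge, on the side of NEIL2, which encodes a DNA repair enzyme. Whether they lie before, in or beyond NEIL2 was not analysed. They scored 152.02 at 15.8 kb, 124.83 at 40.04 kb and 175.51 at 40.79 kb, all below the median of the list. At least 4 peaks were found in 38.6% of windows of 260 kb, and a highest score of 303.2 or more in 58.5%. The RefSeq gene measures 83.1 kb, more than the interval used here, so the gene reaches beyond the interval and the distances from its edges are approximate.

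GATA6 (chromosome 18, 19.64 to 19.89 Mb) had 2 peaks in its window, and both lay close together near the 5′ end of the gene. The peak at 19748269 to 19748640 (372 bp) scored 555.15, a value that 15.0% of the list reached. The other, at 19749771 to 19750033 (263 bp), scored 123.37, with 1447.5 bp between centres. They lay 8.45 and 9.9 kb inside the 5′ edge of the 50 kb interval, which is wider than the 32.9 kb RefSeq gene, so whether they lie just before or just after the start was not resolved. RefSeq also lists an antisense gene there, GATA6-AS1. Of windows of 50 kb, 14.1% held at least 2 peaks. Over the whole 250 kb window the count was low, since 67.9% of windows held at least 2 peaks, and 34.0% had a highest score of at least 555.15.

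GATA1 and GATA5 had 1 peak each, both on the 5′ side of the gene interval and both slightly above the median of the list. For GATA1 (chromosome X, 48.54 to 48.76 Mb) the peak at 48635031 to 48635326 (296 bp) scored 278.36 and lay 4.82 kb outside the interval, toward GLOD5. The nearest other peak centre was 134023.5 bp away. At least 1 peak was found in 81.4% of windows of 220 kb, and in 65.3% of those on chromosome X alone, which has 6.35 peaks per Mb. A highest score of 278.36 or more was found in 56.4%. For GATA5 (chromosome 20, 60.93 to 61.16 Mb) the peak at 61068349 to 61068585 (237 bp) scored 243.24 and lay 8.47 kb outside the interval, toward SLCO4A1. Of peaks of similar width, 6.83% scored as high. At least 1 peak was found in 82.1% of windows of its width, and a highest score of 243.24 or more in 61.9%. The RefSeq genes measure 7.7 kb for GATA1 and 12.5 kb for GATA5, less than the intervals of 20 and 30 kb. Both peaks may therefore lie farther from the genes than the distances given. Just outside the windows of GATA4, GATA6, GATA1 and GATA5, the next peaks scored from 82.38, 28.8 kb past an edge of the GATA4 window, to 628.56, 32.8 kb past an edge of the GATA6 window. The closest of them, 2.1 kb past an edge of the GATA5 window, scored 188.4.

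Over the family, the 21 peaks scored much like the list. Their scores ran from 105.38 to 1048.44 with a median of 262.18, against 212.2 for the list. The better-scoring 50% of the list held 12 of them, or 57.1% (Wilson 95% interval 36.5% to 75.5%, counting error only). The best-scoring 10.0% held 3, or 14.3%, which were 2 GATA3 peaks and the GATA2 peak at 4.61 kb. Their median width was 315 bp, against 293 bp for the list, and wider peaks scored higher in both (Spearman's rho 0.76 over the 21 peaks and 0.83 over the list, given as a description, since peaks share their libraries and the caller sets both values). Of the 21, 13 scored above the median of peaks within 10 bp of their width.

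**Figure D3:**
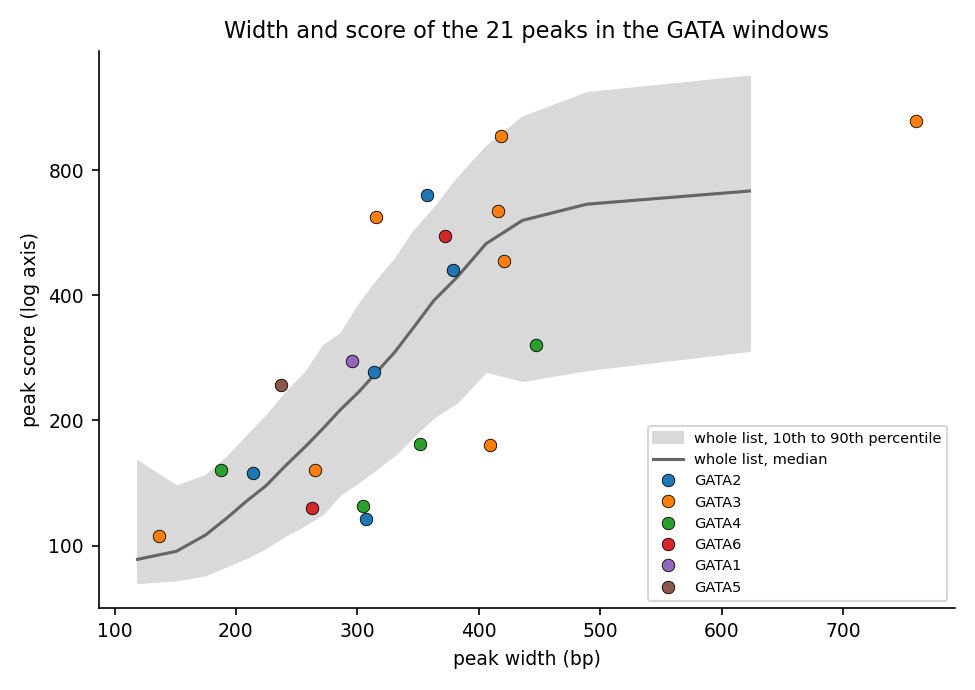
Score (vertical axis, log scale) against width (horizontal axis, bp) of the 21 peaks, coloured by gene, over the median (line) and the 10th to 90th percentile (grey band) of the whole list by width. Points fall on both sides of the line: 3 peaks lie above the band (GATA3 617.26, GATA2 696.08 and GATA5 243.24) and 4 below it (GATA2 115.74, GATA3 174.77, and GATA4 124.83 and 175.51).

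By position, 9 of the 21 peaks lay on the 5′ side of their gene interval, 3 inside it and 9 beyond its 3′ edge. The 204 kb inside the intervals held 14.7 peaks per Mb, and the 1.42 Mb of all windows 14.8 per Mb. The first value rests on 3 peaks in 2 of the 6 intervals, 1 at GATA4 and the close pair at GATA6, and the intervals of the other 4 genes held none. Whether the GATA6 pair lies before or after the start of the gene was not resolved, since that interval is wider than the gene. Close pairs were more frequent than in the list: 6 of the 21 peaks, or 28.6%, had another centre within 2 kb, against 9.82% of all peaks. These were 1 pair each at GATA3, GATA4 and GATA6, and in the GATA3 and GATA6 pairs 1 peak scored above the median of the list and the other below it. This count was made after the values had been seen and rests on 3 pairs. Merging of peaks less than 500 bp apart joined the GATA4 pair into 1 peak.

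The order of the windows by density was GATA3, GATA2, GATA4, GATA6, GATA1 and GATA5. The counting intervals were wide, at 3.45 to 15.8 peaks for GATA3 and 0.0253 to 5.57 for GATA5. They overlapped, but they describe each count alone, and differences between windows were not tested. The order depended on the flank. GATA2 had 26.3 peaks per Mb with a flank of 0.05 Mb and 19.7 per Mb with 0.5 Mb, and stayed above the 12.2 per Mb of the list throughout. GATA3 was the densest with flanks of 0.1 and 0.2 Mb, at 34.8 and 27.9 per Mb. With 0.05 Mb it had 23.1 per Mb, below GATA2 and below GATA4 at 25.0, and with 0.5 Mb it had 13.6, below GATA2 and below GATA6 at 14.3. GATA4 was also above the list at every flank, though only just with 0.5 Mb, at 12.3 per Mb. That value was below the 12.7 per Mb of chromosome 8. GATA1 and GATA5 stayed below the list at every flank, between 3.88 and 8.33 per Mb.

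**Figure D4:**
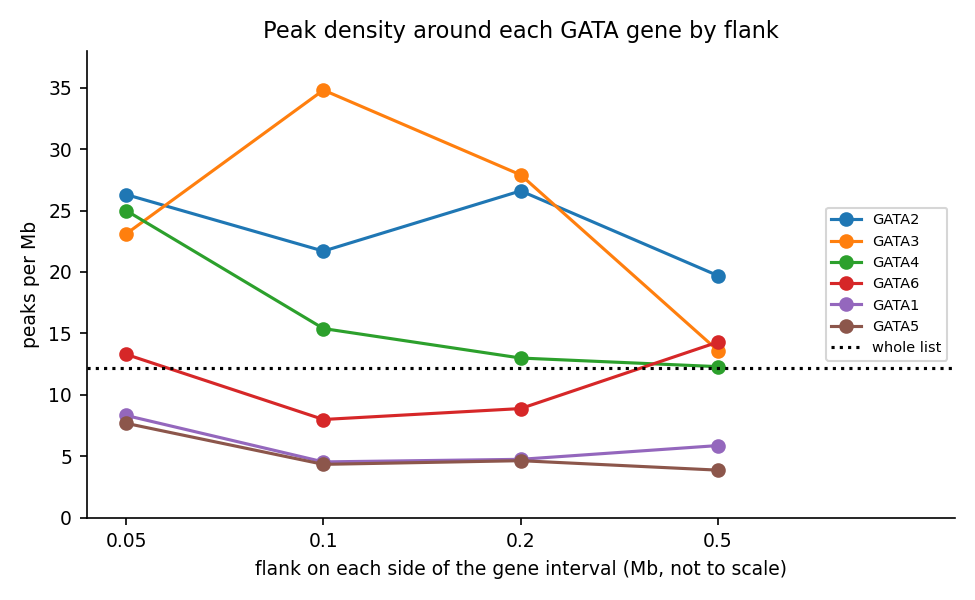
Peaks per Mb (vertical axis) around each GATA gene for flanks of 0.05, 0.1, 0.2 and 0.5 Mb (horizontal axis, evenly spaced steps), with the whole list as a dotted line at 12.2 per Mb. The GATA2, GATA3 and GATA4 lines stay above the dotted line, GATA4 only just at 0.5 Mb, the GATA1 and GATA5 lines stay below it, and the GATA6 line crosses it.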

How the data were processed

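For the 2 replicate ChIP samples the submitters' processing notes name Bowtie and hg19. The peak names in the deposited file name MACS as the caller. The authors deposited 1 list with a start, an end and a score per peak. For versions, a control library and pooling of replicates, the answer is not given in the sources used here.

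Start positions were made 1-based and peaks were assigned by their midpoint. Each count was set beside the share of consecutive windows of the same width, tiled from the chromosome start between the first and last peak, with at least as many peaks. Shares have Wilson and counts exact Poisson 95% intervals. No p-value was computed, since there is 1 group and no value per replicate. RefSeq promoters (GRCh38.p14) were searched for exact strings. RefSeq also gave neighbouring genes by name and strands, except those of GATA4 and GATA5, which are general knowledge. Overlap of peaks with neighbouring genes was not analysed. Counting was checked on simulated positions. The members, windows and named peaks were chosen with earlier results of these data known. In windows of 6 or fewer peaks all were to be named, otherwise the 4 highest-scoring; the other GATA3 peaks were added. Python 3.11.15, numpy 2.4.6, pandas 2.3.3, scipy 1.17.1 and matplotlib 3.10.9 were used.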

Additional observations from a re-analysis of the deposited data

How the results depend on the processing

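The densities rest on few peaks, and counts follow the flank. With a flank of 0.05 Mb the windows held 3 peaks at GATA2 and 3 at GATA3, and the other 4 kept their counts. With 0.2 Mb the counts were 11 at GATA2, 4 at GATA6, 2 at GATA1 and 2 at GATA5, and those at GATA3 and GATA4 stayed within 1.5 times. With 0.5 Mb they were 20 at GATA2, 14 at GATA3, 13 at GATA4, 15 at GATA6, 6 at GATA1 and 4 at GATA5. The better-scoring 50% of the list left 3 peaks at GATA2, 5 at GATA3, 1 at GATA4 and 1 at GATA6. The best-scoring 10% left 1 at GATA2, 2 at GATA3 and 0 at GATA4, GATA6, GATA1 and GATA5. A cut on score can only lower a count or keep it. Assignment by any overlap, and merging of peaks less than 500 bp apart, kept every count within 1.5 times.

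The share of same-width windows with at least as many peaks became, among windows with at least 1 peak, 25.8% for GATA2, 5.27% for GATA3, 45.7% for GATA4, 81.1% for GATA6, and 100% for GATA1 and GATA5, by construction for the last 2. On autosomes alone it was 22.4% for GATA2, 40.6% for GATA4, 70.3% for GATA6, 83.4% for GATA1 and 84.0% for GATA5. On the chromosome of each gene, a setting chosen after seeing the data, it was 23.9% for GATA2, 4.94% for GATA3, 41.7% for GATA4, 70.1% for GATA6 and 65.3% for GATA1. A tiling shifted by 50% of a window kept every share within its 95% interval. The share of peaks in the better-scoring 50% also stayed within its interval under each flank, overlap and merging. The string GATAA gave 1 promoter with a match, against 0 with the hexamers. The strings in peaks and protein identity were not run, since no hg19 sequence and no protein table was used here, nor was leaving out a replicate. No paired analysis was possible because both samples belong to 1 group, with no column for either.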

Other observations

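In the wider surroundings of the GATA genes some peaks outscored those near the genes. Within 0.5 Mb the highest score was 1233.29 at GATA6, 1086.57 at GATA5 and 1032.28 at GATA2, while at GATA3 the highest, 1048.44, was the peak already described. On the 3′ side of GATA2, 4 further peaks lay between its window and 0.2 Mb from the gene. Besides the peak of score 952.57 they scored 411.16 (128058281 to 128058579), 112.16 (128041732 to 128041938) and 167.32 (128004729 to 128004972). On the 5′ side the peak at 128396957 to 128397126 scored 86.2. On the 3′ side of GATA3, beyond the peak of score 874.93, there were narrow peaks at 8248953 to 8249147 with a score of 106.08 and at 8257559 to 8257736 with a score of 110.91. To which gene any of these peaks belongs was not tested.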
